A study of Rattus norvegicus with 18 samples.

Results

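The genes described here encode the cytokines tumor necrosis factor (TNF), interleukin 1 (IL-1) alpha and beta, IL-6 and IL-18, the IL-1 receptor antagonist, 2 components of the inflammasome, and 2 inhibitors of nuclear factor kappa B (NF-kB). They were the 10 genes whose symbol in the deposited tables was Tnf, Il1b, Il1a, Il1rn, Il6, Il18, Nlrp3, Casp1, Nfkbia or Tnfaip3, of 32623 genes in all. Each symbol matched 1 gene, and all 10 were among the 12904 genes that passed the filter on low counts. They were followed in RNA-seq of whole liver from male Wistar rats, with 6 control, 6 NASH (non-alcoholic steatohepatitis) and 6 NASH-CH (NASH with cirrhosis) rats and 1 library per rat.

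Control rats received standard chow and normal water for 12 weeks. NASH rats inhaled carbon tetrachloride (CCl4) and drank water with phenobarbital for 6 weeks, and were then fed a high-fat, high-cholesterol diet (HFCD) for 4 weeks, 10 weeks in all. NASH-CH rats were given CCl4 and phenobarbital for 24 weeks, with HFCD during the last 16. The groups therefore differed in age at sampling and in diet, the CCl4 of the NASH rats ended before their diet began, and the effects of toxicant, diet, duration and age cannot be told apart. The short labels of the samples give CCl4 together with diet for 10 or 24 weeks and do not describe this order. Rats were housed in pairs, and the labels do not say which rats shared a cage.

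TNF and IL-1 are early signals of inflammation, made in the liver largely by resident macrophages (Kupffer cells) and by monocytes that enter the tissue. Both act through receptors that free NF-kB from its inhibitors, and NF-kB switches on further cytokines as well as its own inhibitors, which close the loop. IL-1 beta and IL-18 are made as inactive precursors, and the inflammasome, a complex built around a sensor such as NLRP3, activates caspase-1 to cut them. RNA levels describe the priming of this system and not the cutting step, which takes place on proteins.

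The promoters of 3 genes are shown because NF-kB binds a short site called kB and these 3 carried a match to its consensus. They are the 250 bases before the annotated start of each gene in RefSeq's GRCr8 assembly, all on the minus strand and written 5′ to 3′ in the direction of the gene, with the matches in capitals. That of Il6 lies at chr4:5894576-5894825, that of Nfkbia at chr6:78597073-78597322 and that of Tnfaip3 at chr1:15543980-15544229.
Il6: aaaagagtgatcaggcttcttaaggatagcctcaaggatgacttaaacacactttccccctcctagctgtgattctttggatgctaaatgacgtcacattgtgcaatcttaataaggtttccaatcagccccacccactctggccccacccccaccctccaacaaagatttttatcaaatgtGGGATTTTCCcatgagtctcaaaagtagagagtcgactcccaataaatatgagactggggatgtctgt
Nfkbia: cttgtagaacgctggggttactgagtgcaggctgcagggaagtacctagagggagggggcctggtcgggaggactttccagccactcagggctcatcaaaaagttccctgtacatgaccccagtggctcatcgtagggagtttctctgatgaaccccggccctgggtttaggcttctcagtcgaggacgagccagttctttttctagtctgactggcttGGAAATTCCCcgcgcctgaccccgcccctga
Tnfaip3: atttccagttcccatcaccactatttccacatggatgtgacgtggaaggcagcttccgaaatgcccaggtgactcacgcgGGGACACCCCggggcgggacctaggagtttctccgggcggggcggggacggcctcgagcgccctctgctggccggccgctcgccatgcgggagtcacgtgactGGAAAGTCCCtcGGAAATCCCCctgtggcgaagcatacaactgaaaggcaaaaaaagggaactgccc
The match began 68 bases before the start of Il6 and 31 bases before that of Nfkbia, and Tnfaip3 held 3 matches, 170, 67 and 55 bases before its start. The consensus searched was GGRRNNYYCC, with R for A or G, Y for C or T and N for any base. It is its own reverse complement, so that any match must read on both strands. No other motif was searched, and a match is a description of the letters, not of a bound site. Promoters of all 10 genes were found by symbol, and the consensus was present in 3 of them against 2462 of 27457 rat promoters of the same length (8.97%).

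Library totals were 19498534 to 27174015 counts for control, 20827770 to 29491947 for NASH and 44680344 to 60117822 for NASH-CH rats, so that depth and the NASH-CH group cannot be told apart. Small non-coding RNA genes held 16.1% to 22.3% of counts in control, 14.7% to 17.3% in NASH and 11.1% to 13.1% in NASH-CH rats. This share cannot be told apart from the NASH-CH group either. The 10 hepatocyte markers, such as Alb and Apoa1, summed to 84400 CPM (counts-per-million units) or more in every rat, which matches the label of liver tissue. Among markers of other cells, 9 of 11 neutrophil, 6 of 11 T and NK cell and 5 of 6 B and plasma cell markers were under 1 CPM in every rat. CPM was computed after scaling by the TMM method and is not corrected for gene length, so levels of a gene were compared between rats and not with those of other genes.

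Of the 10 genes, 1 passed the test between diseased and control livers, close to the threshold. Il1rn, which encodes the antagonist that occupies the IL-1 receptor without signalling, was 2.1-fold higher in NASH-CH than in control rats. The groups overlapped, and this call was lost in 13 of 18 fits that each left out 1 rat. With limma-voom no gene of the group passed between NASH and control, or between NASH-CH and NASH, where DESeq2 called Il6. What stood out instead was the spread of some of these genes among control rats, in which Il1b, Tnfaip3 and Nlrp3 varied more than 99.3%, 98.5% and 97.4% of all tested genes. Il18 and Casp1 varied more than only 41.8% and 59.8%.

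Il1rn was measured at 8.41 CPM in the lowest control rat, 22.2 CPM at the median and 30.7 CPM in the highest. In NASH rats the lowest, median and highest values were 17.9, 31.8 and 41.6 CPM, and in NASH-CH rats 17, 43.4 and 72.9 CPM. The groups overlapped, with 4 of 6 NASH-CH rats above every control rat and NASH-CH rat 5, at 17 CPM, below the control median. The means of control, NASH and NASH-CH rats were 20.7 ± 10.4, 30.6 ± 8.1 and 42.4 ± 18.9 CPM (SD, n = 6).
The log2 fold change of Il1rn between NASH-CH and control was 1.07 with a standard error of 0.36 and a Benjamini-Hochberg adjusted p of 0.0469 by limma-voom, and 5 of 6 NASH-CH rats were above the control mean. In that comparison 17% of all tested genes passed the same threshold, and 8.38% of all tested genes were higher, so that a count of 1 in 10 genes is close to the background. The call was near the threshold: over 12 other ways of processing its adjusted p ran from 0.0122 to 0.0924 and passed in 10. Leaving out 1 rat at a time removed the call in 13 of 18 fits, with adjusted p from 0.0159 to 0.11 and log2 fold changes from 0.86 without control rat 1 to 1.28 without NASH-CH rat 5. In these fits it held only when control rat 2, 4 or 6, NASH rat 6 or NASH-CH rat 5 was left out. Neighbouring groups in the order of the means did not pass the test, with log2 fold changes of 0.67 from control to NASH (adjusted p = 0.272) and 0.40 from NASH to NASH-CH (adjusted p = 0.602).

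**Figure D1:**
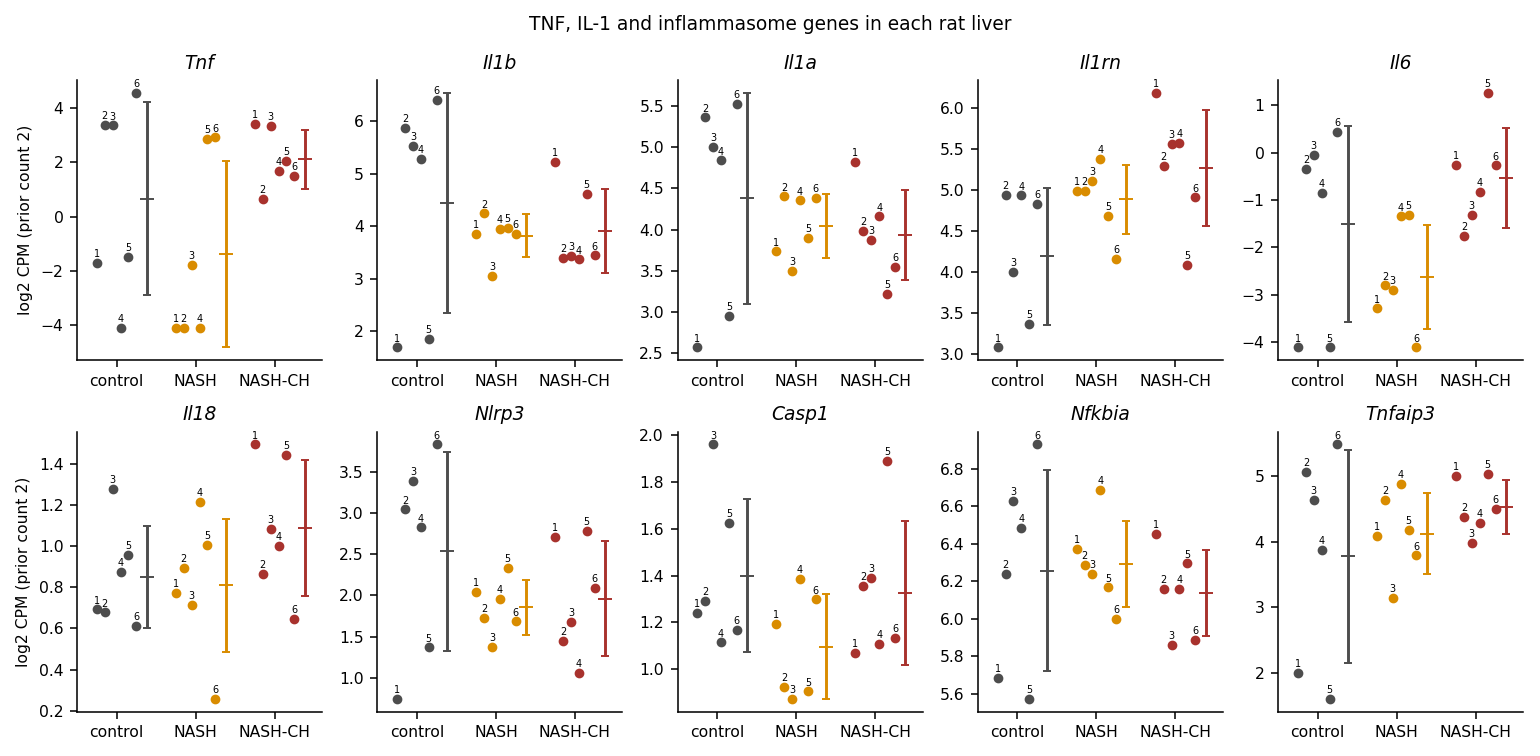
Log2 CPM (prior count 2) of each gene in each rat, with rats numbered within their group and bars giving the mean ± SD of 6 rats. Control rats 1 and 5 lie far below the other control rats for Il1b, Il1a, Nlrp3 and Tnfaip3, and 4 of 6 NASH-CH rats lie above every control rat for Il1rn.

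Il1b, the secreted IL-1 ligand that caspase-1 cuts, passed no test between groups. It was at 3.18 CPM in the lowest control rat, 42.4 CPM at the median and 84.1 CPM in the highest, a range of 26.5-fold. NASH rats held between 8.22 and 18.9 CPM with a median of 14.9 CPM, and NASH-CH rats between 10.3 and 37.2 CPM with a median of 10.8 CPM. Control rats 1 and 5, at 3.18 and 3.57 CPM, were below every diseased rat, and the other 4 control rats, at 38.6 CPM or more, were above every diseased rat. Against control the log2 fold change of Il1b was −0.67 ± 0.69 (SE) with NASH and −0.58 ± 0.68 with NASH-CH, and between the diseased groups it was 0.09 ± 0.69, with adjusted p of 0.619, 0.59 and 0.967.

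Il1a, the IL-1 ligand that acts without being cut, ranked the 6 control rats in the same order, from 5.86 to 46.2 CPM. NASH rats held 11.2 to 21.1 CPM and NASH-CH rats 9.23 to 28.2 CPM, all within the control range. The log2 fold change of Il1a against control was −0.37 with NASH and −0.48 with NASH-CH (adjusted p = 0.671 and 0.472).

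Because the product of Il1rn competes with IL-1 for the same receptor, the log2 ratio of the Il1rn count to the Il1b count was taken within each library, where the scaling of libraries plays no part. Its own level also depends on the lengths of both genes, so that only differences in the ratio between rats are read. Control, NASH and NASH-CH rats had log2 ratios of −0.24 ± 1.39, 1.07 ± 0.63 and 1.37 ± 1.03 (SD, n = 6). All 6 NASH rats and 5 of 6 NASH-CH rats were above the control mean. The highest control rats were 1 and 5, with log2 ratios of 1.40 and 1.52, and NASH-CH rat 5, at −0.52, was below the control mean.
The difference from control was 1.31 in NASH (two-sided exact permutation p = 0.0693) and 1.61 in NASH-CH (exact permutation p = 0.0498), and that between NASH-CH and NASH was 0.29 (exact permutation p = 0.571). Adjusted over these 3 comparisons the values became 0.104, 0.104 and 0.571, so that no difference held up. The smallest p this design allows is 0.00216. Over leaving out 1 rat at a time the difference between NASH-CH and control ran from 1.34 to 1.98, and its unadjusted exact p from 0.0281 to 0.0974.

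**Figure D2:**
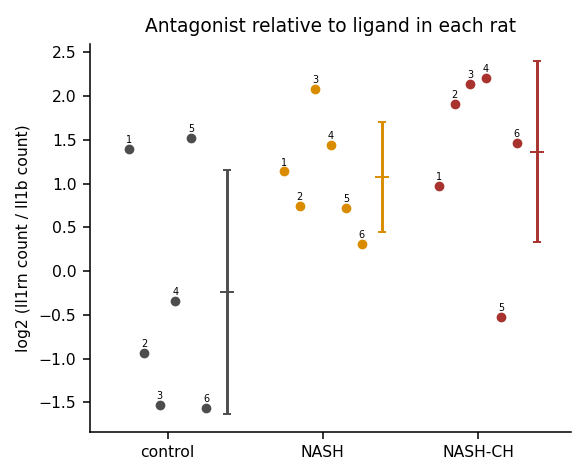
Log2 ratio of Il1rn to Il1b counts in each rat, with rats numbered within their group and bars giving the mean ± SD of 6 rats. All NASH rats lie above the control mean of −0.24, and NASH-CH rat 5 lies below it at −0.52.

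Tnf, the gene of TNF itself, could not be read alone. The quantification divides reads that map to several genes, and 8 rats had a Tnf value that was not a whole number. The gene LOC103694380 (ENSRNOG00000000837) had complementary fractions, so that the sum of both was whole, within 0.015, in all 8 of these rats. In every other rat 1 of the genes was at 0 and the other whole, so that a whole sum there says nothing. This partner was found after the values were seen.
Tnf alone was assigned 0 counts in 4 rats (control rat 4 and NASH rats 1, 2 and 4) in which LOC103694380 held between 114 and 581 counts. The partner was at 0 in 6 other rats, and both were above 0 in 8. Values of Tnf alone therefore depend on how reads were divided, and the sum is given beside them.

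The sum of Tnf and LOC103694380 was 0.249 CPM in the lowest control rat, 23.3 CPM at the median and 31.7 CPM in the highest. NASH rats ran from 0.231 to 8.39 CPM around a median of 6.3 CPM, and NASH-CH rats from 4.56 to 18.8 CPM around a median of 7.5 CPM. Control rats 1 and 5, with 4 and 6 counts, and NASH rat 3, with 6 counts, were the low rats, and the other 4 control rats were above every NASH and NASH-CH rat.
On the sum the log2 fold changes were −0.89 ± 1.2 (SE; limma-voom adjusted p = 0.714) for NASH against control, 0.15 ± 1 (adjusted p = 0.937) for NASH-CH against control and 1.04 ± 1.1 (adjusted p = 0.681) for NASH-CH against NASH. On Tnf alone they were −2.41 (adjusted p = 0.574), 1.55 (adjusted p = 0.415) and 3.95 (adjusted p = 0.324). The division of reads thus moved the estimate between NASH-CH and NASH from 1.04 to 3.95 on the log2 scale without any test being passed, and fitted values with libraries near 0 also depend on the prior count.

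**Figure D3:**
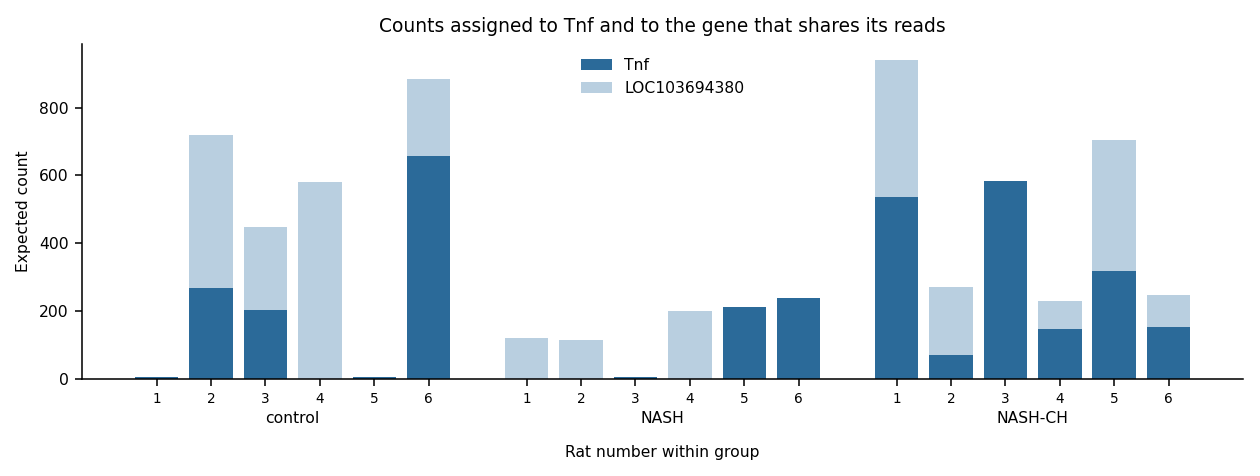
Expected counts assigned to Tnf (dark) and to LOC103694380 (pale) in each of the 18 rats, stacked and not scaled for depth, which was higher in the NASH-CH group. In 4 rats the whole bar is pale, in 6 it is wholly dark, and control rats 1 and 5 and NASH rat 3 have 4 to 6 counts in all.

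Il6, a cytokine induced by TNF and IL-1 that drives the acute-phase response of hepatocytes, was scarce. Control rats ranged from 0 to 1.29 CPM with a median of 0.614 CPM, NASH rats from 0 to 0.342 CPM with a median of 0.0814 CPM, and NASH-CH rats from 0.239 to 2.34 CPM with a median of 0.638 CPM. The 3 rats with no count were control rats 1 and 5 and NASH rat 6, in which a count of 0 allows up to 3 counts, or 0.187, 0.149 and 0.0951 CPM, counting error only. NASH rats held at most 10 counts each, and 5 of 6 NASH-CH rats were above every NASH rat. For 1 of these, NASH-CH rat 3 with 20 counts, the margin was only 0.344 against 0.342 CPM.
The log2 fold change of Il6 between NASH-CH and NASH was 2.75 ± 1.1 (SE), with an unadjusted p of 0.0196 and an adjusted p of 0.177 by limma-voom. By DESeq2 it was 2.5 with an adjusted p of 0.0426, the one alternative in which it passed. Against control it was −1.58 with NASH and 1.16 with NASH-CH (adjusted p = 0.503 and 0.386). Its highest value, 2.34 CPM in NASH-CH rat 5, came from the rat with the highest sums of monocyte (96.3 CPM, of which Lyz2 gave 88.2 CPM) and neutrophil (7.64 CPM) markers, and their part in it was not tested.

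The genes of the inflammasome step showed small differences. Casp1, the protease that cuts the precursors of IL-1 beta and IL-18, averaged 2.64 ± 0.669 CPM (SD) for control, 2.1 ± 0.338 CPM for NASH and 2.5 ± 0.605 CPM for NASH-CH rats. Il18, its cytokine substrate, averaged 1.77 ± 0.335, 1.73 ± 0.379 and 2.12 ± 0.498 CPM, and in 1 rat its value was not whole. Their log2 fold changes lay between −0.29 and 0.31 over the 3 comparisons, and no adjusted p was below 0.363.
Nlrp3, the sensor, averaged 7.32 ± 4.74, 3.64 ± 0.852 and 4.22 ± 2.01 CPM in the same order of groups. The lowest and highest control rats were at 1.62 and 14.2 CPM and enclosed every diseased rat. Against control the log2 fold change of Nlrp3 was −0.78 ± 0.46 (SE) with NASH and −0.65 ± 0.42 with NASH-CH (adjusted p = 0.344 and 0.299).

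The inhibitors differed from each other in spread. Nfkbia, which encodes the inhibitor that holds NF-kB in the cytoplasm and carries 1 kB match in the promoter above, averaged 80.8 ± 28.6, 79.2 ± 13.2 and 71 ± 11.3 CPM from control through NASH to NASH-CH rats. Tnfaip3, which encodes the ubiquitin-editing protein A20 and carries 3, averaged 20.7 ± 16.7, 18.6 ± 7.46 and 23.9 ± 6.98 CPM. Tnfaip3 ran from 2.98 to 44.7 CPM in control rats, again with rats 5 and 1 lowest and rat 6 highest, and from 15.7 to 32.7 CPM in NASH-CH rats. Its log2 fold change in NASH-CH was 0.68 ± 0.53 against control (adjusted p = 0.395), and that of Nfkbia was −0.11 ± 0.2 (adjusted p = 0.75).

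Counted together, 0 of 10 genes passed between NASH and control, where 3.12% of all tested genes did. No gene of the group reached an unadjusted p of 0.05 there, against 21.5% of all genes, and edgeR's quasi-likelihood test and DESeq2 also called 0. Between NASH-CH and NASH, 0 of 10 passed against 4.2% of all genes, with 1 (Il6) at an unadjusted p of 0.05 against 17.5%, 0 by edgeR and 1 by DESeq2. The median log2 fold change of the 10 genes was −0.33 for NASH against control, 0.11 for NASH-CH against control and 0.28 for NASH-CH against NASH, beside 0.01 over all genes in each. No gene of the group separated any pair of groups without overlap, where 1.77% of all genes were wholly higher and 1.39% wholly lower for NASH over control, 3.64% and 3.46% for NASH-CH over control, and 1.36% and 2.1% for NASH-CH over NASH.

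**Figure D4:**
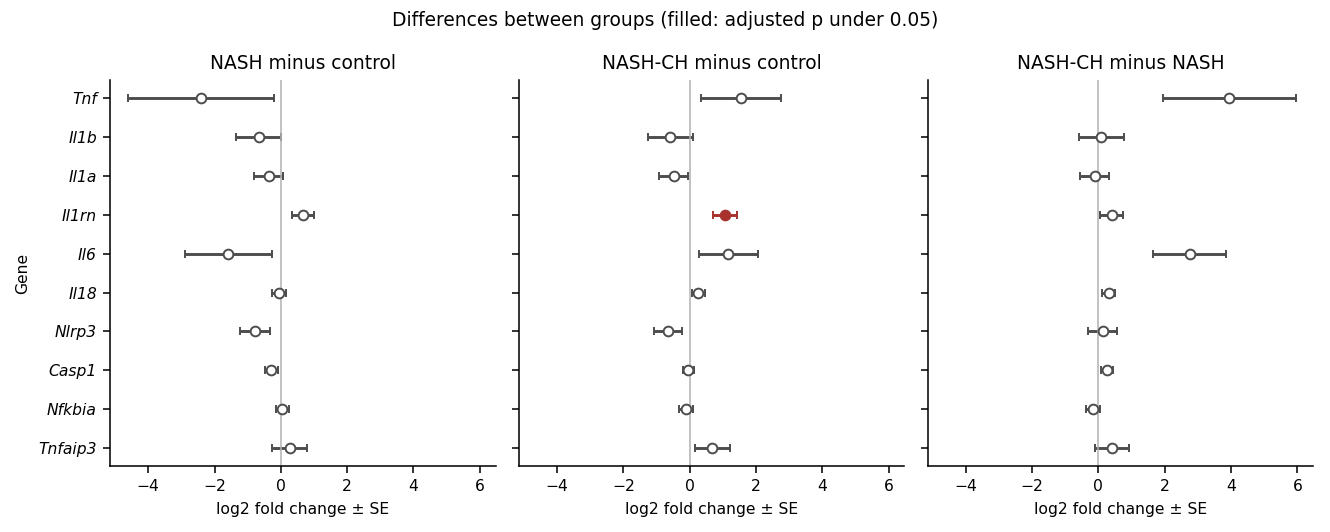
Log2 fold change ± SE of each gene in the 3 comparisons from 1 limma-voom fit of 18 rats, filled where the adjusted p was under 0.05. Il1rn between NASH-CH and control is the filled point, at 1.07, and the widest bars belong to Tnf and Il6.

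The spread among rats of a group was larger for many of these genes than is usual, above all in controls, but not for all. The SD of log2 CPM among the 6 control rats was 2.1 for Il1b, 1.63 for Tnfaip3, 1.28 for Il1a and 1.21 for Nlrp3, and for Il1b it exceeded that of 99.3% of all tested genes. For Il18 and Casp1 it was 0.25 and 0.33, above 41.8% and 59.8% of tested genes. Nfkbia exceeded 47.1% among NASH and 38.3% among NASH-CH rats. The control SDs of Tnf and Il6, 3.55 and 2.06, include rats at 0 and depend on the prior count. The median SD of the 10 genes was 1.25 among control, 0.4 among NASH and 0.62 among NASH-CH rats, beside 0.28, 0.24 and 0.28 for all genes. These SDs are descriptions, and the difference in spread between groups was not tested.
The same control rats were low for many genes. Control rat 1 was among the 2 lowest control rats for 8 of the 10 genes and control rat 5 for 7, and control rat 6 was the highest for 7. Their totals of 19498534, 25548778 and 27174015 counts included the lowest and the highest of the control group. The sum of 15 Kupffer cell and macrophage markers was 498 CPM in control rat 1 and 782 CPM in control rat 5. Control rats ranged from 485 to 782 CPM around a median of 512 CPM. Hepatocyte markers summed to 190000 and 171000 CPM in control rats 1 and 5, within a control range of 127000 to 190000 CPM. The part of cell content, or of any handling or tissue difference, in the low values was not tested.

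Across the 18 rats, as deviations from the group means, Il1b varied with Tnfaip3 (Pearson r = 0.94, Spearman rho = 0.92), Nlrp3 (r = 0.93, rho = 0.93), Il1a (r = 0.89, rho = 0.79) and Il6 (r = 0.84, rho = 0.81). Without control rats 1 and 5, which lay farthest from the median, r was 0.88, 0.87, 0.74 and 0.67. Il1b and Il1rn were more loosely related (r = 0.60, or 0.32 without these 2 rats), and for Il1b and Casp1 r was −0.01. The median r over the 45 pairs was 0.42, and 15 pairs reached 0.7. Within groups the median was 0.73 for control, 0.19 for NASH and 0.40 for NASH-CH rats. Each point is 1 library, so that both genes of a pair share its depth and scaling, and these values are descriptions with no test.

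Among the genes with a kB match, Tnfaip3 and Il6 (r = 0.87), Nfkbia and Tnfaip3 (r = 0.85) and Il6 and Nfkbia (r = 0.81) varied together. Il1b and Nlrp3, whose 250 bases held no match, had r of 0.94 and 0.87 with Tnfaip3.

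Outside the group, the genes with the pattern most like Il1b over the 18 rats were Cxcl2 (r = 0.97), Dusp2 (r = 0.95) and Ccrl2 (r = 0.94). Those most like Tnfaip3 were Egr2, Cxcl2 and Ccrl2 (each r = 0.95), and those most like Nlrp3 were Arl5c, Dusp2 (both r = 0.93) and Cd83 (r = 0.91). Il1a was followed by Zc3h12a (r = 0.94), Apold1 (r = 0.93) and Nr4a1 (r = 0.92), and Nfkbia by Oasl, Btbd19 and Cxcl2 (each r = 0.87). A different set followed Il1rn, with Pptc7 (r = 0.92), Yod1 and Fbxo28 (both r = 0.91), and Casp1, with Msn, Cd48 and Pqlc3 (each r = 0.84). The closest genes were Itpkc (r = 0.90) for Il6, Ggta1 (r = 0.81) for Il18 and Sspn (r = 0.76) for Tnf alone.

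The other genes of these pathways were taken from 8 lists by role, with 137 genes of which 113 were tested. Against control, NASH rats showed 1 higher and 1 lower gene, and NASH-CH rats 14 higher and 2 lower. The background in these comparisons was 1.58% higher and 1.54% lower in NASH, and 8.38% higher and 8.6% lower in NASH-CH. With scaling by library size alone, which shifts the median of all genes by 0.23 and 0.27 on the log2 scale, the counts were 5 and 0 in NASH and 31 and 1 in NASH-CH. That scaling called 865 of all genes in NASH and 3270 in NASH-CH, in place of 403 and 2192. The median log2 fold change of the 113 genes was 0.02 in NASH and 0.22 in NASH-CH.

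The pair that passed in NASH belonged to the list of inflammasome sensors, caspases and effectors, with 16 genes tested. Card6, which encodes a protein with a caspase recruitment domain, rose from 19.3 ± 3.21 to 26.6 ± 0.789 CPM (log2 fold change 0.48, adjusted p = 0.0201). Ninj1, whose product ruptures the plasma membrane of dying cells, fell from 47.1 ± 3.11 to 37 ± 4.03 CPM (−0.35, adjusted p = 0.0342), a call kept in 10 of 18 fits that each left out 1 rat. By library size only Ninj1 was at −0.13 (adjusted p = 0.366), and without a filter its adjusted p was 0.0685. Every NASH rat was beyond every control rat for both genes. The edgeR test called 3 higher and 2 lower genes of the lists in NASH, and DESeq2 7 and 4. Over all 12904 tested genes they called 652 and 1228, against 403 by limma-voom.

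In NASH-CH livers the list of TNF family ligands and receptors had 4 of 14 tested genes above control and a median log2 fold change of 0.53. Among all tested genes 8.38% were higher, and 1 of the 4 called genes, Rhbdf2, encodes neither a ligand nor a receptor. Tnfrsf21, which encodes death receptor 6, averaged 1.19 ± 0.358, 2.47 ± 1.12 and 6.13 ± 2.4 CPM from control through NASH to NASH-CH rats. It rose by 2.27 on the log2 scale over control (adjusted p = 0.000352) and by 1.35 over NASH (adjusted p = 0.00836). Rhbdf2, whose product iRhom2 carries the protease that sheds TNF to the cell surface, rose from 3.04 ± 1.45 to 7.43 ± 2.87 CPM (1.30 against control, adjusted p = 0.0135, and 1.44 against NASH, adjusted p = 0.0147).
Tnfsf12, the gene of the ligand TWEAK, rose from 2.58 ± 0.615 to 4.29 ± 0.678 CPM (0.77, adjusted p = 0.00455). The remaining call, Ltbr, the lymphotoxin beta receptor, had a log2 fold change of 0.46 (adjusted p = 0.037), kept in 9 of 18 such fits, and is named after its value was seen.

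The IL-1 family list had 1 of 7 tested genes higher in NASH-CH than in control, Il36b, a ligand of a related receptor, at 0.493 ± 0.201 and 1.28 ± 0.438 CPM (log2 fold change 1.31, adjusted p = 0.0163). The IL-6 family list had 1 of 8, Osmr, a receptor subunit for oncostatin M, at 3.84 ± 1.69 and 11.6 ± 8.37 CPM (1.43, adjusted p = 0.0351), a call kept in 12 of 18 fits with 1 rat left out and lost with quality weights (1.06, adjusted p = 0.064) and with 2 groups fitted alone (adjusted p = 0.0763). As 8.38% of all tested genes were higher in NASH-CH than in control, 1 of 7 and 1 of 8 are near the background. Between NASH and control limma-voom and edgeR called 0 genes of either list, with 1 and 2 at an unadjusted p of 0.05, and DESeq2 called 1 in each, Il36b and Il6st.

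Downstream of the receptors, 2 of 26 adaptors and kinases rose in NASH-CH rats, Irak3, an inhibitory kinase of the IL-1 receptor pathway (0.63, adjusted p = 0.0131), and Traf3, an adaptor that restrains the alternative NF-kB route (0.69, adjusted p = 0.0179). With 8.38% of all tested genes higher in NASH-CH than in control, 2 of 26 is near the background. Of 8 NF-kB subunits and IKK genes 1 rose, a count also near that background. It was Ikbkb, which encodes the kinase that marks the product of Nfkbia for destruction. Ikbkb averaged 17.3 ± 1.77, 18 ± 1.66 and 24.9 ± 1.51 CPM from control through NASH to NASH-CH rats, with every NASH-CH rat above every other rat (0.52 against control, adjusted p = 0.00038, and 0.48 against NASH, adjusted p = 0.00161). Of the 12 other NF-kB inhibitors and feedback regulators, 0 passed in any of the 3 comparisons by limma-voom, edgeR or DESeq2, with 1, 1 and 2 at an unadjusted p of 0.05 by limma-voom.

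Among inflammasome genes 3 of 16 rose in NASH-CH over control, where 8.38% of all tested genes were higher. Card6 reached 31.1 ± 3.7 CPM (0.70, adjusted p = 0.000184), Casp12, an inflammatory caspase, rose from 5.03 ± 1.68 to 10.2 ± 3.73 CPM (1.06, adjusted p = 0.00863), and Casp4, which encodes the caspase that senses intracellular lipopolysaccharide, from 6.61 ± 2.12 to 10 ± 2.08 CPM (0.68, adjusted p = 0.0354). Against NASH, Casp4 (0.83, adjusted p = 0.0326) and Nlrc4, a gene of the same list (1.11, adjusted p = 0.0341), were higher. With 1 rat left out Casp4 held in 10 of 18 fits against control and 11 of 18 against NASH, and Nlrc4 in 10 of 18. Casp4 against control was also lost with edgeR (0.61, adjusted p = 0.0543), with 2 groups fitted alone (0.69, adjusted p = 0.0643) and with quality weights (0.46, adjusted p = 0.123). Against NASH, both were lost without small non-coding RNA genes (adjusted p = 0.0516 for Casp4 and 0.0559 for Nlrc4), Casp4 with thinned counts (adjusted p = 0.0582), and Nlrc4 with 2 groups fitted alone (adjusted p = 0.076) and by library size only (adjusted p = 0.0736).

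Of 22 tested target genes of TNF and IL-1, 2 were higher and 2 lower in NASH-CH than in control. Among all tested genes 8.38% were higher and 8.6% lower, so that these counts are near the background. Lcn2, which encodes the siderophore-binding protein lipocalin 2, was at 1.56 ± 0.525 CPM in control and 55.7 ± 54.8 CPM in NASH-CH rats, where it ranged from 12.3 to 156 CPM (log2 fold change 4.66, adjusted p = 0.0195). In NASH rats Lcn2 ran from 0.822 to 93.8 CPM and did not pass with limma-voom (1.88, adjusted p = 0.437), while edgeR and DESeq2 called it higher than control. Gadd45b, a stress-response gene, rose from 12 ± 7.54 to 29.3 ± 5.11 CPM (1.45, adjusted p = 0.03), and the call was lost without control rat 1, 3 or 5 (adjusted p up to 0.0744). In NASH rats Gadd45b averaged 39 ± 29.7 CPM, and its log2 fold change over control of 1.55 missed the threshold with limma-voom (adjusted p = 0.0551) and was called by edgeR and DESeq2.
Cebpb, which encodes a transcription factor of the acute-phase response, fell to 32.1 ± 8.35 CPM in NASH-CH rats, from 59 ± 12 CPM among controls and 64.9 ± 14.2 CPM with NASH, with every NASH-CH rat below every other rat (−0.89 against control, adjusted p = 0.00575, and −1.03 against NASH, adjusted p = 0.00484). Sod2, the mitochondrial superoxide dismutase, fell from 76.2 ± 10.6 to 59.3 ± 10.8 CPM (−0.37, adjusted p = 0.0393), in 9 of 18 fits with 1 rat left out, and was at −0.11 by library size only (adjusted p = 0.473). Of all 24 calls in the lists, 16 held in each of the 18 fits and 15 of these also in every other alternative. Between NASH-CH and NASH the lists held 5 higher and 1 lower gene in all, against a background of 1.81% and 2.39%.

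**Figure D5:**
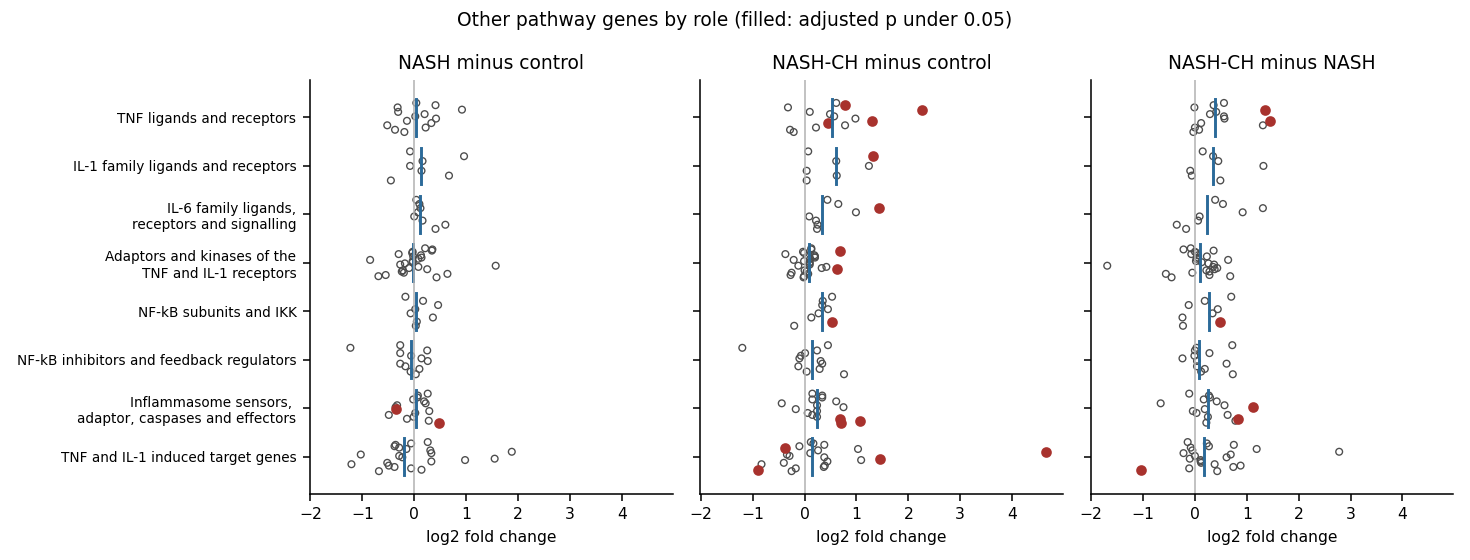
Log2 fold change of each tested gene of the 8 lists in the 3 comparisons, with bars at the median of each list and filled points for an adjusted p under 0.05. Of the 24 filled points 16 are in the comparison of NASH-CH with control, with Lcn2 at 4.66 and Tnfrsf21 at 2.27.

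Marker genes of resident macrophages, a source of these cytokines, also moved. Of 14 tested Kupffer cell and macrophage markers, 8 were lower in NASH-CH than in control (C1qb, C1qc, Cd163, Cd5l, Clec4f, Csf1r, Marco and Vsig4) and 2 higher (Gpnmb and Trem2). Of all tested genes 8.6% were lower and 8.38% higher in that comparison. The summed level of that list was 485 to 782 CPM among control, 394 to 524 CPM among NASH and 354 to 520 CPM among NASH-CH rats, with Timd4 under 1 CPM in every rat. In bulk liver, the number of cells of a type and the RNA per cell cannot be told apart. By staining of sections, the study reported more CD68-positive and CD163-positive macrophages in NASH-CH than in control livers. Those are counts of stained cells and not of RNA, and the difference in direction from Cd163 RNA was not tested. Cd68 RNA averaged 11.6 CPM in control and 12.7 CPM in NASH-CH rats (log2 fold change 0.15, limma-voom adjusted p = 0.49).
The sum of 6 monocyte markers was 12 to 22 CPM among control, 13.5 to 20.5 CPM among NASH and 26.6 to 96.3 CPM among NASH-CH rats, with Ccr2, Cx3cr1 and Fcnb under 1 CPM in every rat. Most of that sum is 1 gene, Lyz2, which averaged 11.3, 11.2 and 37.6 CPM in these groups and passed the test over control (log2 fold change 1.58, adjusted p = 0.000659), while Fcgr1a averaged 3.47, 3.4 and 3.06 CPM. Neutrophil markers summed to 0.466 to 3.32 CPM, 0.579 to 1.77 CPM and 0.81 to 7.64 CPM. The study reported more infiltrating neutrophils in NASH-CH than in control livers by staining, which counts cells and not RNA.
Some markers of other liver cells also passed the test in NASH-CH livers. Against control, 3 of 10 hepatocyte markers were lower (Alb, Apoa1 and Ttr), 2 of 7 stellate cell and fibroblast markers higher (Col1a1 and Des) and 1 lower (Lrat), and 1 of 6 endothelial markers higher (Vwf). Of all tested genes 8.38% were higher and 8.6% lower, so that counts of 1 are near the background. Cholangiocyte markers summed to a median of 9.97 CPM among control and 14.5 CPM (6.53 to 51.5) among NASH-CH rats, the groups overlapping, with 0 of 4 called by limma-voom (1 at an unadjusted p under 0.05), 2 by edgeR and 1 by DESeq2. The part of these shifts in the level of Il1rn, or of the pathway genes above, was not tested.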

How the data were processed

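RNA-seq of whole liver covered 18 rats, grouped by the group in their labels. The authors trimmed adapters, aligned reads to Rnor_6.0 with STAR, quantified genes of Ensembl release 95 with RSEM, and deposited expected counts for each rat, not normalized. The labels name an RNAqueous-Micro kit, the study's methods an miRNeasy kit. RSEM shares out reads that match several genes, so that 6.53% to 7.73% of genes in a library had values that were not whole.

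Expected counts were rounded, filtered with filterByExpr, scaled by TMM (edgeR 4.0.16) and tested with limma-voom (limma 3.58.1, R 4.3.3) in 1 fit of 18 rats without covariates, with Benjamini-Hochberg adjustment over 12904 genes and a threshold of 0.05. The study's methods name this test but no filter. At the same threshold the study counted fewer genes against control than the 403 (NASH) and 2192 (NASH-CH) called here. The reason was not tested. The fit was tested on simulated data. The Il1rn to Il1b ratio (0.5 added to each count) was compared by two-sided exact permutation tests. Alternatives included edgeR's quasi-likelihood fit, DESeq2 1.42.0, other scaling and filters, thinned counts, a replicate block and leaving out each rat.

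All 10 genes were named, and from each list up to 3 genes per direction with the largest moderated t. The genes and lists were chosen with earlier results of these data known. Sums with LOC103694380 were added after seeing the data. Promoters came from RefSeq (GRCr8), not the build of the counts. Same-numbered rats did not deviate together (correlations from −0.12 to 0.17) and were not treated as pairs.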

Additional observations from a re-analysis of the deposited data

Results flagged for a closer look

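Il6 was at 2.34 CPM in NASH-CH rat 5, with the next rat of the group at 0.781 CPM, and Casp1 was at 3.65 CPM in the same rat, with the next at 2.56 CPM. Both were found because 1 rat stood far from the other 5 of its group, in 2 of 36 groups of values examined. If values were normally distributed, chance alone would give such a gap in about 1 of 20 groups. The gaps were taken on CPM and not on log2 CPM, and this rate was not checked here. The same rat had the largest library, 60117822 counts, the lowest sum of hepatocyte markers, 84400 CPM, and the highest sums of monocyte, neutrophil and cholangiocyte markers, 96.3, 7.64 and 51.5 CPM, with Lyz2 giving 88.2 CPM of the monocyte sum. Whether these go together was not tested. Without this rat the log2 fold change of Casp1 between NASH-CH and NASH was 0.10 in place of 0.25, and neither passed the test.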

How the results depend on the processing

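Of 352 fold changes of the 10 genes recomputed under other processing, 335 kept their direction and their side of the threshold. Il1rn in NASH-CH over control lost its call without small non-coding RNA genes (1.05, adjusted p = 0.0514) and with 2 groups fitted alone (1.07, adjusted p = 0.0924), which left 0 of the 10 genes called there, and Il6 in NASH-CH over NASH passed with DESeq2 (2.5, adjusted p = 0.0426), the 1 gene called there. Directions turned only for values that passed no test. For NASH over control these were Nfkbia (−0.03 with edgeR and DESeq2, −0.02 with quality weights), Tnfaip3 (−0.16 with edgeR and DESeq2) and Il18 (0.16 by library size only, 0.03 with thinned counts). For NASH-CH over control they were Tnf (−0.48 with edgeR, −0.47 with DESeq2, −0.08 with the replicate block), Casp1 (0.19) and Nfkbia (0.14) by library size only, and for NASH-CH over NASH Il1a (0.10) and Nlrp3 (−0.10) with quality weights. The causes were not tested.

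Genes of the lists called in NASH over control, 1 higher and 1 lower, were 3 and 2 with edgeR, 7 and 4 with DESeq2, 5 and 0 by library size only, 3 and 4 with quality weights, and 2 and 2 with 2 groups alone. The higher count was 2 with at least 10 counts in every rat, with thinned counts and with the replicate block, and the lower count was 0 without a filter. Over all genes, 403 calls became 652 with edgeR, 1228 with DESeq2 and 865 by library size only. They became 1509 with quality weights, 644 with 2 groups alone and 268 without a filter. In NASH-CH over control, 14 higher and 2 lower genes of the lists became 31 and 1 by library size only, and the lower count was 5 without a filter, 4 with quality weights, and 1 with 2 groups alone and with the replicate block. Over all genes, 2192 calls became 3270 by library size only and 5495 without a filter. They became 2410 with quality weights, 1408 with 2 groups alone and 2095 with the replicate block. In NASH-CH over NASH the 5 higher genes of the lists became 8 with edgeR, 12 with DESeq2 and without a filter, 9 with quality weights and 3 without small non-coding RNA genes. Over all genes, 542 calls became 617 with edgeR, 949 with DESeq2 and 2649 without a filter. They became 774 with quality weights and 271 without small non-coding RNA genes.

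The log2 ratio of Il1rn to Il1b in NASH-CH over control was 1.55 with thinned counts (exact permutation p = 0.0563) and 1.61 with same-numbered rats paired (exact sign-flip p = 0.125, where 0.03125 is the smallest possible).

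Leaving out 1 rat at a time gave ranges of 1.05 to 1.67 for this ratio in NASH over control, 1.34 to 1.98 in NASH-CH over control and 0.12 to 0.67 in NASH-CH over NASH. Genes of the lists called higher and lower ran from 1 to 5 and 0 to 2 in NASH over control, 10 to 16 and 1 to 2 in NASH-CH over control, and 3 to 7 higher in NASH-CH over NASH, and of the 10 genes 0 to 1 were called in NASH-CH over control. Fold changes that turned direction ran, for NASH over control, from −0.12 to 0.08 for Il18, −0.08 to 0.18 for Nfkbia and −0.15 to 0.62 for Tnfaip3, for NASH-CH over control from −0.18 to 0.06 for Casp1 and −0.25 to 0.02 for Nfkbia, and for NASH-CH over NASH from −0.17 to 0.20 for Il1b, −0.29 to 0.02 for Il1a and −0.06 to 0.30 for Nlrp3. Il1rn ran from 0.86 to 1.28 in NASH-CH over control.

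Among called genes of the lists, those in NASH-CH over control also lost with 2 groups fitted alone were Ltbr (adjusted p = 0.0624), Traf3 (0.0531) and Sod2 (0.0779). With the replicate block the calls of Casp4 (0.0603), Osmr (0.0576) and Sod2 (0.0566) over control and of Casp4 over NASH (0.0522) were lost.

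With the replicate block all genes called were 444, 2095 and 540 in place of 403, 2192 and 542, and 2 of 6 rats correlated best with their own number in each comparison. Over all genes, counts of calls ranged from 268 (no filter) to 1509 (quality weights) for NASH over control, 1408 (2 groups alone) to 5495 (no filter) for NASH-CH over control and 271 (without small non-coding RNA genes) to 2649 (no filter) for NASH-CH over NASH. All 10 genes passed the filter, so that tests planned for genes below it gave no value, and Tnf and Il6 had none with at least 10 counts in every rat. Low counts limit Il6, with 0 to 180 per rat, and the division of reads limits Tnf. Depth, the share of small non-coding RNA genes, age, toxicant and diet all differ with the group.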
